A study of Homo sapiens with 6 samples.

Results

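The genes described here are 9 well-known transcriptional targets of p53, namely *CDKN1A*, *BTG2*, *MDM2*, *ZMAT3*, *GDF15*, *TP53INP1*, *SESN1*, *TP53I3* and *FDXR*, taken by gene name from an RNA-seq count table of 17222 gene names. All 9 had a row, and 8 of them passed edgeR's filter on low counts, as did 14660 names of the whole table. The table holds 3 libraries of H226 cells transfected with ASO_LINC#3, an antisense oligonucleotide directed against the long noncoding RNA *SWINGN*, and 3 libraries of H226 cells transfected with the control oligonucleotide ASO_CTRL, all collected 48 h after transfection. H226 is a long-established human line derived from a squamous carcinoma of the lung, and the comparison asks which transcripts differ upon *SWINGN* knockdown. Both conditions share the transfection, and the RNA-seq used only 1 oligonucleotide sequence against *SWINGN*, so an effect of the lncRNA and an effect of that sequence cannot be told apart. The *SWINGN* row itself was not analysed here, so the depletion was not checked in these libraries. No untransfected cells and no cells with activated or inactivated p53 are among the samples compared.

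p53 is a transcription factor that is kept at a low level by MDM2, a ubiquitin ligase whose gene p53 itself switches on, and by the related protein MDM4. When DNA damage or another stress stabilizes p53, it binds paired copies of a short DNA element near its target genes and raises the transcription of genes for cell cycle arrest, DNA repair, metabolism and apoptosis. Some of these targets also answer to other stress pathways. *GDF15* and *CDKN1A* are the members best known for this, and *GDF15*, together with *ATF3*, *DDIT3* and *TRIB3*, is a familiar readout of the integrated stress response, in which phosphorylation of the initiation factor eIF2 favours translation of the transcription factor ATF4.

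To show where a p53 element lies at these genes, the reference genome GRCh37 (the sequence of hg19, to which the authors aligned) was searched within 2500 bases on either side of the canonical start of each gene for the p53 consensus site, which consists of 2 abutting half-sites of 10 bases, each made of 3 purines, a C, 2 bases that are A or T, a G and 3 pyrimidines. The C and G of both cores had to match, and at most 2 of the other 16 positions could differ. This tolerance was set so that the well-known elements of *CDKN1A* and *MDM2* were found. The site is a palindrome, so the search covers both strands. The matches at 5 of the 9 genes are shown 5′ to 3′ along the strand of the gene, with the 4-base core of each half-site in capitals.
*CDKN1A*: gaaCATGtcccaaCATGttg
*BTG2*: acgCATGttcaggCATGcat
*MDM2*: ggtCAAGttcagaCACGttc
*ZMAT3*: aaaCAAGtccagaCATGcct
*GDF15*: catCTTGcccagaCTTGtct

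The *CDKN1A* site lies at chr6:36644226-36644245 on the plus strand, at position -2265 from the start. The *BTG2* site lies at chr1:203272770-203272789, at position -1877, and the *GDF15* site at chr19:18496118-18496137, at position -850, both on the plus strand and upstream of the canonical start. The *MDM2* site, at chr12:69202703-69202722 on the plus strand, is in an intron 746 bases after the start. The *ZMAT3* site, at chr3:178787976-178787995 on the minus strand, is in an intron 1602 bases after the start. It is the only one of the 5 without a mismatch, and the other 4 each have 2. Of 19819 protein-coding genes searched in the same way, 3.78% hold a site with at most 2 mismatches and 0.0656% hold one without a mismatch. The windows of *TP53INP1*, *SESN1*, *TP53I3* and *FDXR* hold no such match. A match is a description of the letters and not a measured binding site, and elements further away or of another form were not looked for.

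**Figure D1:**
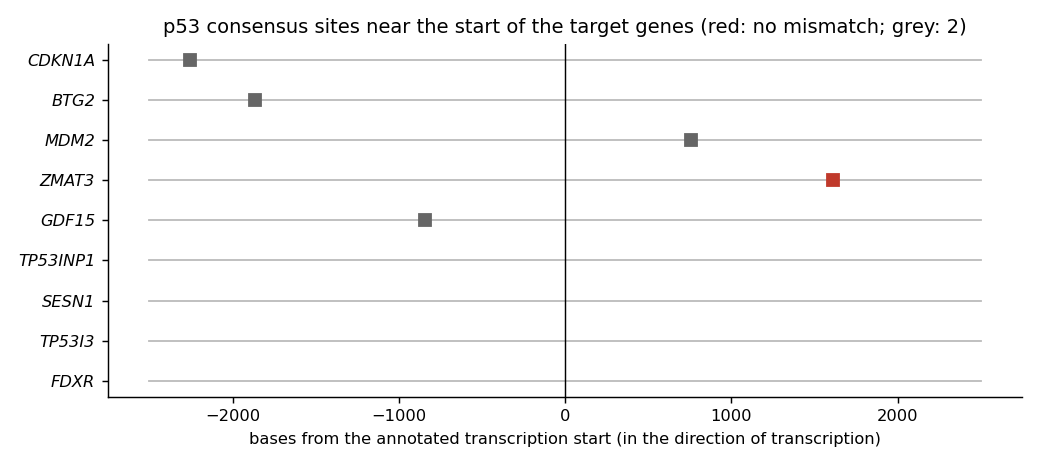
Position of p53 consensus sites relative to the annotated transcription start of the 9 genes, in bases along the direction of transcription (horizontal axis). Each square is 1 site, red with no mismatch and grey with 2 mismatches. *CDKN1A*, *BTG2* and *GDF15* have a site before the start, *MDM2* and *ZMAT3* one after it, and the other 4 genes have none within 2500 bases.

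Values are CPM, the counts of a gene scaled to a common library total of reads on genes with edgeR's TMM factors. Differences are log2 fold changes of ASO_LINC#3 over ASO_CTRL with their standard error (SE), and calls required an adjusted p below 0.01 (edgeR's quasi-likelihood F-test, adjusted by Benjamini and Hochberg's procedure over all 14660 genes) together with a log2 fold change beyond 0.5. Reads counted on genes ranged from 3686828 in ASO_LINC#3 replicate 3 to 10546786, so that library is the least precise. It also stands apart from the other ASO_LINC#3 libraries in base composition. Genes with over 60% GC had a median log2 change from the control mean of 0.298 in it, against -0.233 and -0.28 in ASO_LINC#3 replicates 1 and 2. The medians of ASO_CTRL replicates 1 to 3 were 0.00421, 0.0501 and -0.0493, so all 3 ASO_LINC#3 libraries lay outside the controls. The labels do not state whether the replicates came from separate cultures, so p-values measure the spread between these libraries only, and in such bulk samples fewer cells of a kind and less RNA per cell cannot be told apart. Of the squamous markers, the keratin *KRT5* was present at 62.6 to 117 CPM while *KRT6A* had 0, 0 and 1 reads in the control libraries and 14, 5 and 4 in the ASO_LINC#3 libraries, and *TP63*, *KRT14*, *SOX2* and *DSG3* were not analysed here. The simple-epithelial keratins *KRT7*, *KRT8*, *KRT18* and *KRT19* ranged from 770 to 5260 CPM. Of the mesothelial markers, *CALB2* fell from 601 to 154 CPM, whereas *WT1* (46.0 and 36.6 CPM, log2 fold change -0.32) and *MSLN* (29.1 and 31.1 CPM, 0.06) were not called, and the part of these differences in the target gene results was not tested. The squamous label was thus checked on *KRT5* and *KRT6A* only, and with *KRT6A* almost absent from the controls these 2 genes do not settle it. The monocyte marker *CD14*, the 1 blood or endothelial marker analysed, stayed at or below 2.17 CPM.

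Of the 8 target genes tested, *GDF15* alone was called, as higher upon *SWINGN* knockdown, and none was called lower. Over all genes tested, 4.91% were called higher and 2.63% lower. *GDF15* and *MDM2* had positive log2 fold changes and the other 6 genes negative ones, with a median of -0.08 over the 8 genes and of -0.0027 over all genes. The libraries of the conditions did not overlap for *GDF15* (ASO_LINC#3 above) or for *ZMAT3* and *BTG2* (ASO_LINC#3 below), that is for 3 of 8 genes, against 36.1% of all genes tested. At an unadjusted p under 0.05 there were 3 of the 8, *GDF15*, *ZMAT3* and *SESN1*, against 32.4% of all genes tested.

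**Figure D2:**
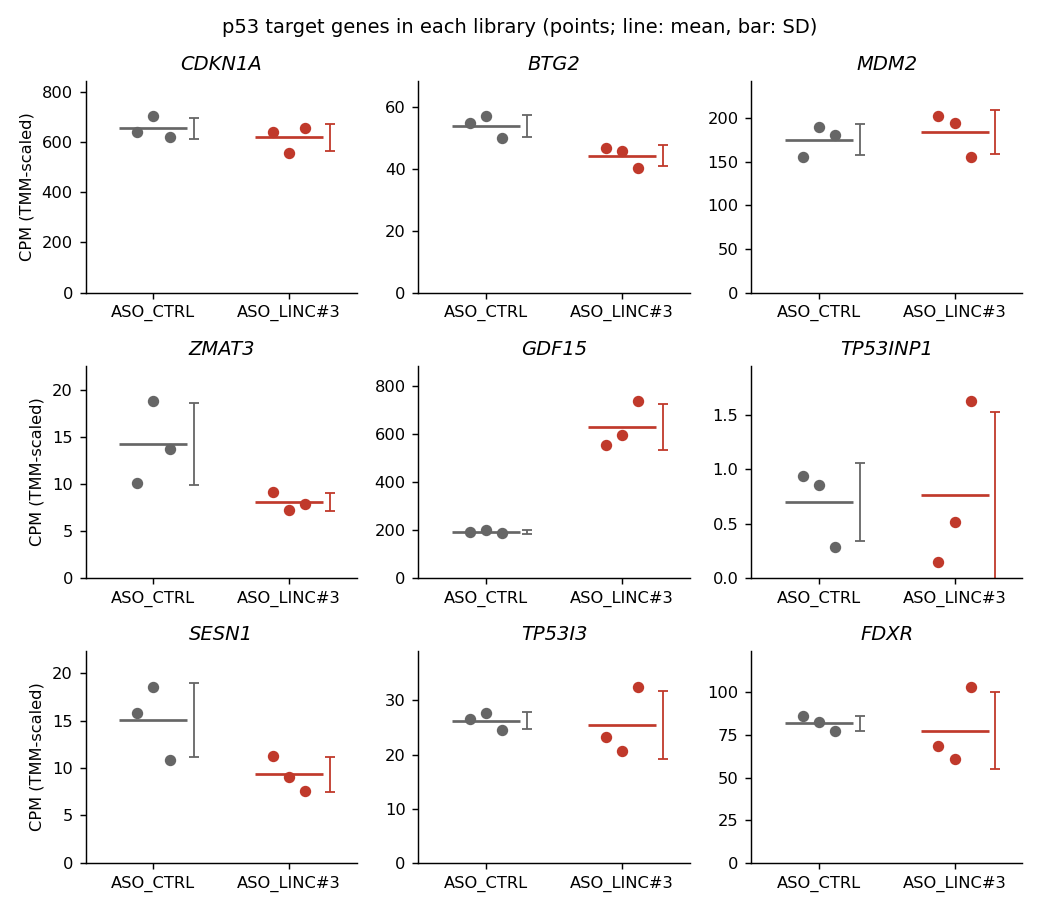
CPM of the 9 target genes in each library (points, grey for ASO_CTRL and red for ASO_LINC#3), with the mean (line) and SD (bar) of 3 libraries per condition, each panel on its own linear axis from 0. The *GDF15* points of ASO_LINC#3 lie at 555 to 736 CPM, all above the 186 to 200 CPM of ASO_CTRL, whereas the points of *CDKN1A*, *MDM2*, *FDXR*, *TP53I3*, *SESN1* and *TP53INP1* overlap between conditions.

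*GDF15* encodes a secreted cytokine of the TGF-β superfamily that rises in the blood in many stress states, and its gene lies at chr19:18485541-18499986. It stood at 190.0, 200.5 and 185.8 CPM in ASO_CTRL replicates 1 to 3 and at 555, 595 and 736 CPM in ASO_LINC#3 replicates 1 to 3. Every ASO_LINC#3 library was above every control library, and replicate 3 was the highest. The mean rose from 192 ± 7.54 to 628 ± 95.3 CPM (SD, n = 3), a 3.27-fold increase with a 95% interval of 2.65 to 4.04. The log2 fold change was 1.71 (SE 0.138), with an adjusted p of 3.46e-05 by edgeR's quasi-likelihood F-test. With 1165 to 3774 reads per library, the counting error on this gene was small. Its transcript has a GC content of 62.9%. In the class over 60% all 3 ASO_LINC#3 libraries lay outside the controls, replicate 3 above and replicates 1 and 2 below. Once the dependence on GC content and transcript length had been taken out of every library, the changes of the 3 ASO_LINC#3 libraries were 1.81, 1.95 and 1.66 on the log2 scale, and replicate 3 was then the lowest rather than the highest. The part of base composition in this order was not tested.

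*CDKN1A* encodes p21, the inhibitor of cyclin-dependent kinases through which p53 halts the cell cycle, and lies at chr6:36644237-36655114. It was measured at 642, 703 and 621 CPM in the control libraries and at 641, 557 and 657 CPM in the ASO_LINC#3 libraries. The conditions overlap, with values of both interleaved in the order of levels. The log2 fold change was -0.08 (SE 0.120, adjusted p = 0.675 by edgeR's quasi-likelihood F-test), and its 95% interval of -0.35 to 0.18 leaves room for a level between 0.785 and 1.14 times that of the control. That interval lies below the whole interval of *GDF15*. A lncRNA annotated on the opposite strand (*DINOL*) overlaps a *CDKN1A* exon, and since the strand setting of the counting is not given in the sources used here, reads of this pair cannot be told apart.

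The members most often shared with other stress pathways, *GDF15* and *CDKN1A*, thus differed from each other. The number of *GDF15* reads per *CDKN1A* read, which needs no scaling between libraries, was 0.296, 0.285 and 0.299 in the control libraries. It was 0.865, 1.07 and 1.12 in the ASO_LINC#3 libraries, with no overlap between the conditions. The mean ratio was 0.294 ± 0.00742 in ASO_CTRL and 1.02 ± 0.135 in ASO_LINC#3 (SD, n = 3), a 3.45-fold difference between the geometric means. An exact two-sided permutation test gave p = 0.1, the smallest value that 3 libraries against 3 allow. The ratio joins a gene called higher with one that changed little in the same libraries, so this test is no separate evidence. Per kilobase of the annotated canonical transcript, the mean control level was highest for *CDKN1A* at 310 CPM per kb, followed by *GDF15* at 160 CPM per kb, and in the ASO_LINC#3 libraries this order was turned, with 524 CPM per kb for *GDF15* and 292 CPM per kb for *CDKN1A*. The cDNA was primed with oligo-dT, and scaling by length assumes that reads fall along the whole transcript.

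Among the other targets with a role in arrest, *BTG2* is an antiproliferative factor of the BTG/TOB family at chr1:203274619-203278730. Its values were 54.8, 57.0 and 49.8 CPM in the control libraries and 46.6, 45.9 and 40.4 CPM in the ASO_LINC#3 libraries. All 3 ASO_LINC#3 libraries were below the lowest control. The difference was small, at -0.28 on the log2 scale (SE 0.134), and was not past the threshold (adjusted p = 0.182, edgeR's quasi-likelihood F-test).

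The members that act back on p53 or on RNA were *MDM2* and *ZMAT3*. *MDM2*, at chr12:69201957-69239324, had 156, 190.0 and 181 CPM in the control libraries and 202, 194 and 155 CPM in the ASO_LINC#3 libraries. The conditions overlap, and ASO_LINC#3 held both the lowest and the highest value. Its log2 fold change was 0.07 (SE 0.143, adjusted p = 0.784, edgeR's quasi-likelihood F-test), with a 95% interval from -0.25 to 0.38, or 0.843 to 1.30 times the control level. Its sign is not settled by these libraries: it was negative at -0.0092 without ASO_CTRL replicate 1, at -0.0050 without ASO_LINC#3 replicate 1 and at -0.03 after the trend on GC content and length was removed. *CPM*, the gene of carboxypeptidase M, is also counted and overlaps *MDM2* on the opposite strand, so their reads cannot be told apart without the strand setting.

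*ZMAT3* encodes a zinc finger protein that binds RNA and affects splicing and transcript stability, and lies at chr3:178677909-178790003. It had 10.1, 18.8 and 13.7 CPM in the control libraries and 9.11, 7.19 and 7.86 CPM in the ASO_LINC#3 libraries. The ASO_LINC#3 libraries were lower, but the gap between the highest of them and the lowest control was smaller than the spread of the controls. The log2 fold change was -0.80 (SE 0.248), the lowest of the 8, with an adjusted p of 0.0478 by edgeR's quasi-likelihood F-test, which passes 0.05 but not 0.01. The value rested on between 29 and 144 reads per library. By edgeR's quasi-likelihood F-test the adjusted p was 0.0115 with the GC content and length trend removed. Without ASO_CTRL replicate 2 it was 0.153 by that test. Whether the p53 element without a mismatch has a part in the level of *ZMAT3* was not tested.

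*SESN1* and *TP53INP1* belong to the antioxidant and autophagy arm of the response. *SESN1*, which encodes a sestrin that restrains the growth kinase complex mTORC1 when leucine is scarce, lies at chr6:109305512-109416049. It had 15.8, 18.6 and 10.9 CPM in the control libraries and 11.3, 9.07 and 7.59 CPM in the ASO_LINC#3 libraries. The highest ASO_LINC#3 value exceeded the lowest control value. The log2 fold change was -0.65 (SE 0.242, adjusted p = 0.0875, edgeR's quasi-likelihood F-test), which rested on between 28 and 117 reads per library. A lncRNA annotated on the opposite strand overlaps a *SESN1* exon, so their reads cannot be told apart without the strand setting. *TP53INP1*, which encodes a stress-induced regulator of p53 phosphorylation and autophagy, had 7, 5 and 3 reads in the control libraries and 1, 3 and 6 reads in the ASO_LINC#3 libraries. It was removed by the filter and not tested, and no fold change is given for it, since a difference was not detectable at this depth. Another counted gene overlaps *TP53INP1* on the opposite strand.

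*TP53I3* and *FDXR* encode enzymes of redox metabolism that have been tied to p53-dependent apoptosis, a quinone oxidoreductase and the mitochondrial ferredoxin reductase. *TP53I3*, at chr2:24300303-24308731, had 26.5, 27.7 and 24.5 CPM in the control libraries and 23.2, 20.7 and 32.5 CPM in the ASO_LINC#3 libraries. *FDXR*, at chr17:72858619-72869156, had 85.9, 82.3 and 77.3 CPM in the control libraries and 68.2, 60.9 and 103 CPM in the ASO_LINC#3 libraries. In both genes replicates 1 and 2 of ASO_LINC#3 lay below all controls and replicate 3 lay above them. The log2 fold changes were -0.06 (SE 0.185) for *TP53I3* and -0.09 (SE 0.187) for *FDXR*, with adjusted p-values of 0.866 and 0.792 by edgeR's quasi-likelihood F-test.

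The transcripts of these 2 genes are rich in GC, at 59.4% for *TP53I3* and 63.5% for *FDXR*. The split between replicates has the direction of the base composition shifts, upward in ASO_LINC#3 replicate 3 and downward in replicates 1 and 2. After removal of the GC content and length trend the changes of ASO_LINC#3 replicates 1 to 3 were -0.0061, -0.12 and 0.05 for *TP53I3* and -0.04, -0.15 and 0.02 for *FDXR* on the log2 scale. That removal also takes out any other difference that follows GC content or length. Whether base composition has a part in the split was not tested. Without ASO_LINC#3 replicate 3, *FDXR* had a log2 fold change of -0.34 (adjusted p = 0.038) and *TP53I3* one of -0.25 (adjusted p = 0.189) by edgeR's quasi-likelihood F-test, and neither was called. The counted gene *FAM228B* overlaps *TP53I3* on the opposite strand.

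**Figure D3:**
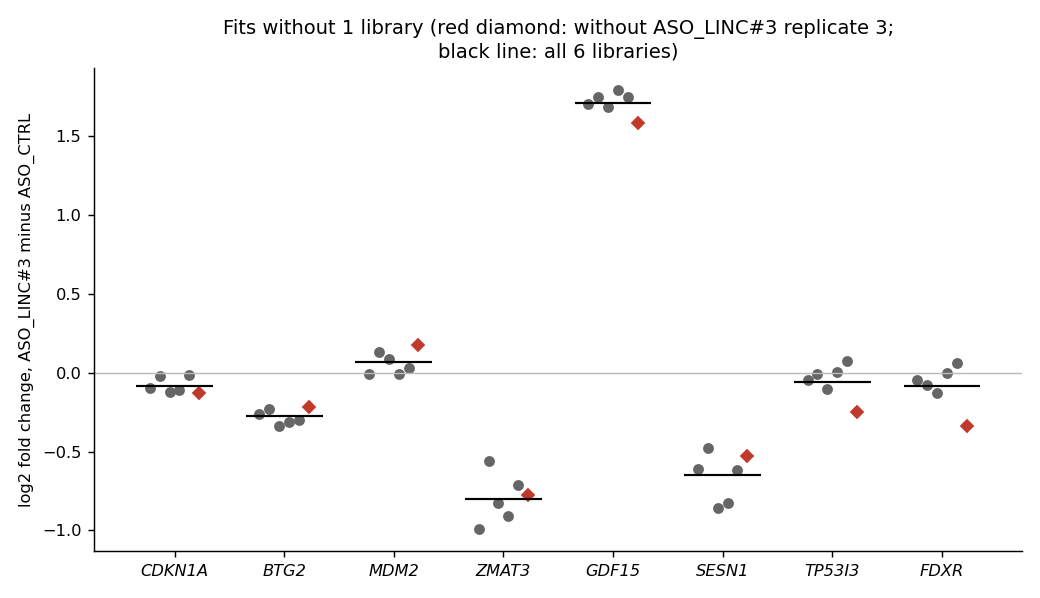
Log2 fold change of the 8 tested targets (ASO_LINC#3 minus ASO_CTRL) when 1 library at a time is left out (points), with the value from all 6 libraries as a black line and the fit without ASO_LINC#3 replicate 3 as a red diamond. *GDF15* stays between 1.58 and 1.79, *MDM2*, *TP53I3* and *FDXR* fall on both sides of 0, and *FDXR* and *TP53I3* reach their lowest values, -0.34 and -0.25, without ASO_LINC#3 replicate 3.

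*GDF15* was called in each of the 6 fits that left out 1 library, with adjusted p-values from 1.28e-06 to 9.55e-04 by edgeR's quasi-likelihood F-test. *ZMAT3* ranged from -0.99 to -0.56 and *SESN1* from -0.86 to -0.47 on the log2 scale in these fits, and neither was called in any. *CDKN1A* ranged from -0.13 to -0.01.

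On the list of p53 relatives and regulators, 14 of 17 genes were tested. Of these, 1 was called higher and 0 lower, against 4.91% and 2.63% of all genes. At an unadjusted p under 0.05 there were 3 of the 14, against 32.4% of all genes, and DESeq2 and limma-voom also called 1 higher and 0 lower. Amount and activity of the p53 protein were not measured here. *PPP1R13L*, which encodes iASPP, an inhibitor of p53, rose from 33.5 ± 4.23 to 57.5 ± 4.47 CPM (SD, n = 3), with a log2 fold change of 0.78 (SE 0.146, adjusted p = 0.00511, edgeR's quasi-likelihood F-test), with no overlap between the conditions. Its call was kept in 1 of the 6 fits without a library, the one without ASO_LINC#3 replicate 3, and its adjusted p ranged from 0.00154 to 0.0415 over them. *MDM4*, the partner of MDM2 in holding p53 back, had 15.8, 17.7 and 16.7 CPM in the control libraries and 12.3, 19.5 and 15.2 CPM in the ASO_LINC#3 libraries, which overlap (log2 fold change -0.09, SE 0.196, adjusted p = 0.785, edgeR's quasi-likelihood F-test). The p53 relatives *TP63* and *TP73* were not analysed here.

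**Figure D4:**
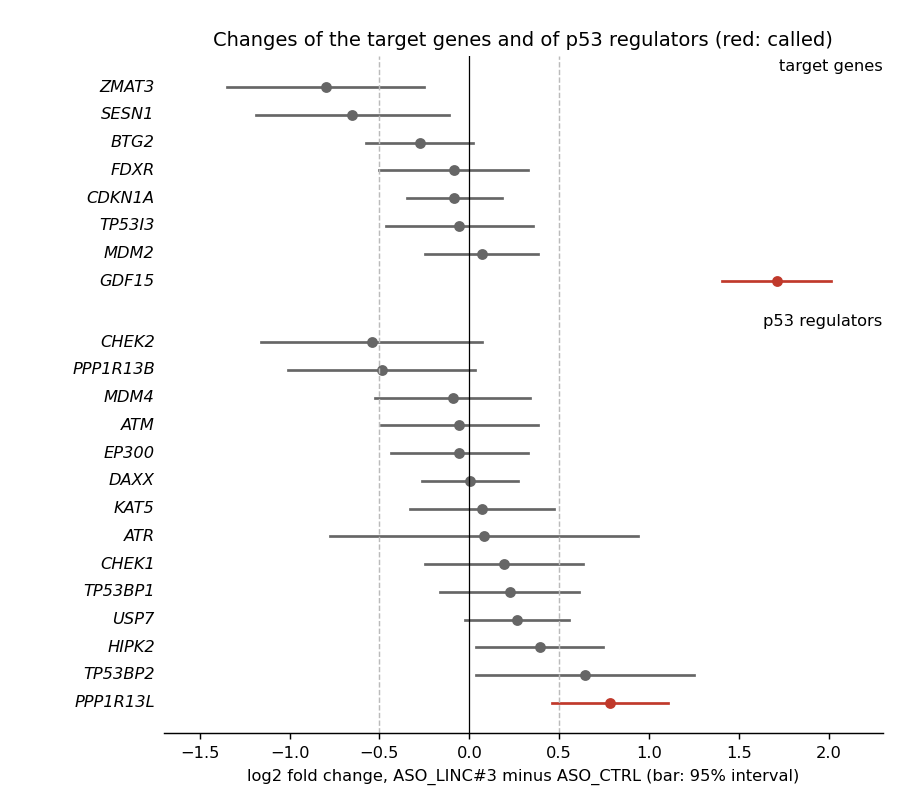
Log2 fold change (ASO_LINC#3 minus ASO_CTRL, points) with its 95% interval (bars) for the 8 tested targets and for the p53 regulators, with called genes in red and dashed lines at the bounds of 0.5 on either side of 0. *GDF15* at 1.71 stands apart from the other targets, whose values run from -0.80 to 0.07, and *PPP1R13L* at 0.78 is the one regulator called.

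Of 56 further p53 targets, on lists that hold none of the 9, 48 were tested, and 7 were called higher and 0 lower by edgeR, against 4.91% and 2.63% of all genes. At an unadjusted p under 0.05 there were 24 of the 48 in either direction, against 32.4% of all genes. DESeq2 called 11 of them higher and 2 lower, against 6.57% and 4.33% of all genes, and limma-voom called 7 higher and 1 lower, against 5.26% and 3.02%. The median log2 fold change of the 48 genes was 0.27, while that of all genes was -0.0027. The calls lay in 4 of the 6 functional lists.

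In the apoptosis list, 13 of 15 genes were tested, with a median log2 fold change of 0.54. Of these, 3 were called higher and 0 lower, against 4.91% and 2.63% of all genes. At an unadjusted p under 0.05 there were 8 of the 13 in either direction, against 32.4% of all genes. DESeq2 called 5 higher and 0 lower, against 6.57% and 4.33% of all genes. The death receptor genes *TNFRSF10B* (DR5) and *TNFRSF10A* (DR4), which encode receptors for TRAIL, rose from 89.6 ± 4.26 to 174 ± 6.35 CPM and from 14.2 ± 0.448 to 26.2 ± 3.68 CPM (SD, n = 3). *PMAIP1*, which encodes the BH3-only protein NOXA, rose from 22.0 ± 4.37 to 54.7 ± 8.64 CPM. Their log2 fold changes were 0.96 for *TNFRSF10B*, 0.89 for *TNFRSF10A* and 1.33 for *PMAIP1*, and in each the ASO_LINC#3 libraries lay above the controls. The call of *TNFRSF10B* was kept in all 6 fits without a library, that of *PMAIP1* in 5, with an adjusted p of 0.0105 without ASO_CTRL replicate 3 by edgeR's quasi-likelihood F-test, and that of *TNFRSF10A* in 1, the fit without ASO_LINC#3 replicate 3. *TNFRSF10C* had under 10 reads in every library and was not tested.

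In the cell cycle arrest list, from which *CDKN1A* and *BTG2* were set apart, 8 of 9 genes were tested. Of these, 2 were called higher and 0 lower, against 4.91% and 2.63% of all genes. At an unadjusted p under 0.05 there were 7 of the 8 in either direction, against 32.4% of all genes. DESeq2 called 3 higher and 0 lower, against 6.57% and 4.33% of all genes. *BTG1*, an antiproliferative relative of *BTG2*, rose from 39.2 ± 2.22 to 178 ± 28.8 CPM (SD, n = 3), with a log2 fold change of 2.18 (SE 0.154). *GADD45A*, which encodes a growth arrest protein that interacts with p21 and PCNA, rose from 548 ± 74.3 to 1587 ± 293 CPM, with a log2 fold change of 1.54 (SE 0.162). Both calls were kept in all 6 fits without a library. The fold change of *BTG1* thus had the sign opposite to that of *BTG2*.

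In the metabolism and autophagy list, 7 of 10 genes were tested. Of these, 1 was called higher and 0 lower, against 4.91% and 2.63% of all genes. Negative log2 fold changes were found in 5 of the 7, against 50.3% of all genes. At an unadjusted p under 0.05 there were 4 of the 7, against 32.4% of all genes. The called gene was *SESN2*, the sestrin paralog of *SESN1*, which had 70.8, 72.3 and 64.3 CPM in the control libraries and 133, 147 and 180.0 CPM in the ASO_LINC#3 libraries. It rose by a log2 fold change of 1.15 (SE 0.146, adjusted p = 5.6e-04, edgeR's quasi-likelihood F-test), a call kept in all 6 fits without a library. The number of *SESN2* reads per *SESN1* read was 4.77 ± 1.04 in ASO_CTRL and 17.2 ± 6.04 in ASO_LINC#3 (SD, n = 3), and the lowest ASO_LINC#3 value, 11.8, was above the highest control value, 5.91. This ratio joins a gene called higher with one whose fold change was negative in the same libraries. Its exact two-sided permutation p of 0.1, again the smallest possible, is therefore no separate evidence. *DRAM1*, which encodes a lysosomal membrane protein that promotes autophagy, was named after its values were seen. It had 198, 174 and 219 CPM in the control libraries and 128, 119.6 and 139 CPM in the ASO_LINC#3 libraries, all of them below the controls. Its log2 fold change was -0.61 (SE 0.134), with an adjusted p of 0.0107 by edgeR's quasi-likelihood F-test, just outside the threshold, and it was called lower by DESeq2 (adjusted p = 0.00155) and by limma-voom (adjusted p = 0.00888). *SESN2* is also a textbook target of ATF4, while *SESN1* is known mainly as a target of p53 and FOXO factors. Whether any of these factors has a part in the levels of *SESN2* and *SESN1* was not tested.

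In the list of surface and secreted proteins, 6 of 8 genes were tested. Of these, 1 was called higher and 0 lower, against 4.91% and 2.63% of all genes. At an unadjusted p under 0.05 there were 2 of the 6, against 32.4% of all genes. The called gene, *TNFAIP8*, encodes a regulator of cell survival that is itself cytosolic. None of the tested genes for surface or secreted proteins was thus called. *TNFAIP8* rose from 18.98 ± 0.558 to 42.3 ± 10.3 CPM (SD, n = 3), with a log2 fold change of 1.17 (SE 0.189). It kept its call only in the fit without ASO_LINC#3 replicate 3.

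The feedback and DNA repair lists had no call by edgeR, against 4.91% higher and 2.63% lower of all genes. All 7 feedback genes were tested, 0 had an unadjusted p under 0.05, and DESeq2 called 0. Of the 7 DNA repair genes, 3 had an unadjusted p under 0.05, against 32.4% of all genes. They were *RRM2B* and *XPC* with positive and *RPS27L* with negative fold changes. DESeq2 called *RRM2B* higher and *RPS27L* lower. These 3 genes were named after their values were seen. *RRM2B*, the p53-inducible subunit of ribonucleotide reductase, had a log2 fold change of 1.06 (adjusted p = 0.0185) and *RPS27L*, a ribosomal protein paralog, one of -0.79 (adjusted p = 0.0196) by edgeR's quasi-likelihood F-test.

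p53 lowers many cell cycle genes indirectly, through p21 and the repressor complex DREAM. All 20 genes of this kind on the list were tested. In either direction edgeR called 0 of them, against 4.91% higher and 2.63% lower of all genes. DESeq2 and limma-voom also called 0. In a list of 20 genes, 0 calls is not far from these shares. Their median log2 fold change was -0.08, with values from -0.40 to 0.47. At an unadjusted p under 0.05 there were 2 of the 20, against 32.4% of all genes. They were the mitotic cyclin genes *CCNB2* (log2 fold change -0.40) and *CCNB1* (-0.34). Both had the ASO_LINC#3 libraries below the controls, and both were named after their values were seen.

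The integrated stress response list, which excludes *GDF15*, was set beside the targets because that pathway shares members with the p53 response. All 12 genes were tested, and 8 were called higher and 0 lower, against 4.91% and 2.63% of all genes. All 12 had positive log2 fold changes, against 49.7% of all genes, with a median of 1.36. *DDIT4*, an inhibitor of mTORC1 that is itself also a p53 target, rose from 92.6 ± 9.47 to 422 ± 20.2 CPM (SD, n = 3), with a log2 fold change of 2.19. The transcription factor genes *ATF3* and *DDIT3* (CHOP) rose from 24.7 ± 0.472 to 89.6 ± 7.35 CPM and from 61.9 ± 4.43 to 190.0 ± 21.05 CPM, log2 fold changes of 1.85 and 1.61. The 4 genes of the list that were not called, named after their values were seen, were *ATF4* itself (log2 fold change 0.72, adjusted p = 0.015), *NUPR1* (0.57, adjusted p = 0.0211), *CEBPB* (0.10, adjusted p = 0.6) and *VLDLR* (0.07, adjusted p = 0.87), by edgeR's quasi-likelihood F-test. *ATF3*, *DDIT4*, *SESN2*, *GADD45A*, *PMAIP1* and *TNFRSF10B* are known to answer to more than one stress pathway, and these libraries hold no measure that assigns their change to one of them.

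**Figure D5:**
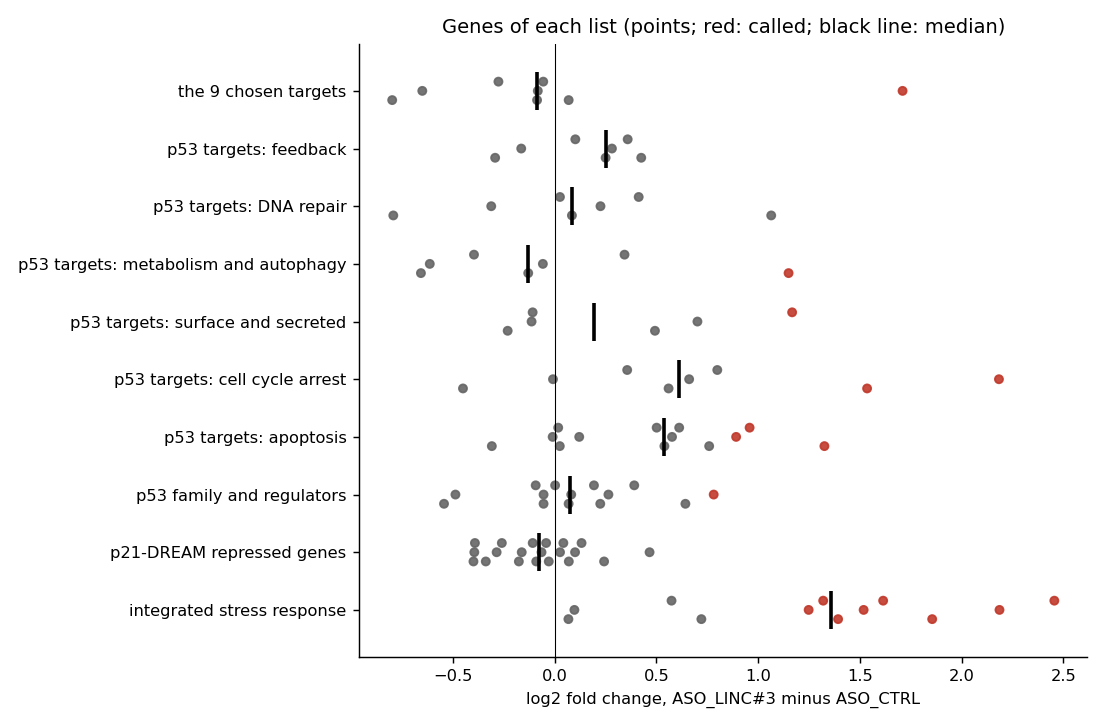
Log2 fold change (ASO_LINC#3 minus ASO_CTRL) of each tested gene of the 9 chosen targets, of 6 further lists of p53 targets, of p53 regulators, of genes repressed through p21 and DREAM, and of the integrated stress response (points, red where called), with the median of each list as a black line. The medians run from -0.13 for the metabolism and autophagy targets to 1.36 for the integrated stress response, and the p21-DREAM genes lie between -0.40 and 0.47 with none called.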

How the data were processed

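Total RNA of H226 cells, 3 libraries per condition, was converted to cDNA with oligo-dT primers and sequenced as single reads of 75 bp. The authors aligned the reads to hg19 with STAR and deposited raw counts of reads per gene name, not normalized. The counting tool, annotation and strand setting are not given in the sources used here. The methods text names BJ cells for the RNA-seq, whereas the labels name H226. The 4 rows of reads assigned to no gene, 24.8% to 28.1% of each library, were left out.

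Counts were analysed with edgeR 4.0.16 in R 4.3.3 (filterByExpr, TMM, quasi-likelihood F-test over the whole table, Benjamini-Hochberg adjustment). CPM are means ± SD, and the change in 1 library is its log2 CPM (prior count 2) relative to the control mean. The common biological coefficient of variation was 0.159. Replicates differed beyond sampling noise (chi-square per degree of freedom of 2.5 to 14 between pairs), so each counted as 1 replicate. The fit was also run on simulated counts with the same biological spread for all genes and no base composition shift. That run does not cover the shift of ASO_LINC#3 replicate 3.

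The 9 targets and all lists were chosen with earlier results of these data known. Genes named were the 9 targets, *TP63*, *TP73* and *MDM4*, in each list the called genes, at most 3 of smallest p in each direction, and list genes under 10 counts in every library. Markers and the genes stated as such in the text are exceptions. Some genes that the rule names are not reported here, and they were left out of the lists. Alternatives were DESeq2 1.42.0, limma-voom (limma 3.58.1), DESeq2 size factors, library size only, no filter, at least 10 counts in every library, an adjusted p of 0.05, a replicate block and leaving out each library. Removal of the dependence on GC content and transcript length within each library, by splines of 5 degrees of freedom, was added after seeing the data, over 86.1% of the tested genes. Positions, lengths and GC content were read from GENCODE gene models on GRCh37, and the authors may have used other models.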

Additional observations from a re-analysis of the deposited data

How the results depend on the processing

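The call of *GDF15* was kept under all 15 alternatives, with log2 fold changes from 1.58 to 1.81. *CDKN1A*, *SESN1*, *BTG2* and *ZMAT3* kept their negative sign in all 15, and *CDKN1A*, *SESN1* and *BTG2* were called in none. At an adjusted p below 0.05 the number of targets called was 2 in place of 1, because *ZMAT3* (-0.80) was then called. The 8 targets had 2 positive changes in 12 alternatives, 1 to 4 in the fits without a library and 1 after the GC content and length trend was removed. *MDM2* turned to -0.0092 without ASO_CTRL replicate 1, to -0.0050 without ASO_LINC#3 replicate 1 and to -0.0277 with that trend removed, and its highest value was 0.175, without ASO_LINC#3 replicate 3. *TP53I3* turned to 0.0063 without ASO_LINC#3 replicate 1 and to 0.0748 without replicate 2, and *FDXR* to 0.0616 without ASO_LINC#3 replicate 2, while without ASO_LINC#3 replicate 3 they stood at -0.249 and -0.339.

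Of all genes tested, 1106 were called, 359 to 2616 without a library (most without ASO_LINC#3 replicate 3), 656 with the replicate block, 2465 at an adjusted p below 0.05, 1681 with the trend removed and 1597 by DESeq2. The fit with the trend removed covered only the 12619 genes with a known GC content and length, so its counts have another total. Of the p53 pathway lists together, 8 genes were called, 4 to 14 without a library (most without ASO_LINC#3 replicate 3), 14 by DESeq2, 17 at an adjusted p below 0.05, 13 with the trend removed and 6 with the replicate block. No p21-DREAM gene was called in any, and 7 to 10 integrated stress response genes were. Apart from the looser threshold, the cause of these differences was not tested. Same-numbered libraries did not deviate together (correlations of 0.059, -0.149 and -0.18 for numbers 1 to 3). These deviations are from means of 3 libraries and include the base composition shift of ASO_LINC#3 replicate 3. They therefore cannot show whether same-numbered libraries were paired. With the block the calls on the 9 targets did not change. Depth limits *TP53INP1*, *SESN1* and *ZMAT3* most.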
